A study of Mus musculus with 4 samples.

Results

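The genes described here are 43 mouse genes of the antioxidant and glutathione system: superoxide dismutases, catalase, peroxidases, peroxiredoxins, thioredoxin and glutaredoxin enzymes, glutathione-making enzymes, glutathione transferases, metallothioneins and the regulators NRF2 (gene Nfe2l2) and KEAP1. They were chosen by symbol, and each was read from the probe set with the highest mean signal over the 4 arrays. Of the 43, 40 had a probe set that the platform annotation assigns to that gene alone. Prdx1 was represented only by probe sets shared with Gm21399 and was given no value, and Prdx5 and Prdx6 were not named by the annotation used here. Gpx3, a secreted glutathione peroxidase, lay below the filter on dim probe sets, with signals of 12.7 and 18.0 in wild type against 25.6 and 43.8. That left 39 of these genes among 12115 genes tested.

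The RNA came from Treg cells (CD4 T cells that express Foxp3 and restrain other immune cells) of the spleen of C57BL/6 mice. There were 2 wild-type arrays and 2 arrays titled Foxo1/3-deficient, numbered as 2 pairs of 1 array per genotype; the genotype field of the latter names Foxo1 alone. The sources used here do not give how the genes were deleted, the age of the mice or whether arrays came from separate or pooled animals, so the p-values measure only the spread between these arrays.

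The 2% trimmed mean signal was 500.003 on each array, and medians ran from 72.0 to 83.4. Foxp3 read between 6056 and 6540 on every array, and 0 of 8 Treg markers passed the test described below. Natural killer markers summed to 5072 and 7308 in wild type against 345 and 228 over 4 genes, with Gzma, called lower, as the bulk of it, while the receptors Ncr1, Klra8 and Klre1 stayed at or below 70.0. Foxo1 went against the label: its brightest probe set read 2383 and 1254 in wild type against 6949 and 6697 (limma adjusted p = 0.0209), so those arrays are called labelled-deficient throughout, and every direction below is that of the labels. Foxo3 read 1876 and 2635 in wild type against 1424 and 1308. The sources used here do not say whether these probe sets lie in a deleted part. Macrophage markers were higher as a sum on the labelled-deficient arrays, at 11809 and 7720 against 18882 and 13188 over 11 genes. Of the 10 tested, 0 passed limma at an adjusted p under 0.05, but 6 were higher with the pair as a block. Not every marker followed: the log2 difference was -0.14 for Lyz2 and 0.08 for Cd68, beside a median of 0.83. Markers of dividing cells were lower, with sums of 39840 and 40388 against 15554 and 19197 over 7 genes, of which 5 passed. Erythroid markers summed to 604 and 580 against 765 and 549, with 0 of 5 past the threshold. Neutrophil markers summed to 1602 and 1023 against 527 and 425 over 8 genes, with 0 of 5 past the threshold and 2 lower with the block (Mmp9, Mpo). B cell markers summed to 2442 and 841 against 2851 and 1849 over 5 genes. Of the 4 tested 0 passed, and 1 was higher with the block (Ms4a1). Plasma cell markers summed to 9888 and 13300 against 8095 and 11481 over 5 genes. Of the 4 tested only Prdm1, which effector T cells also express, passed, and it was lower (limma adjusted p = 0.0290). The log2 difference was -0.24 for Xbp1, 0.002 for Sdc1 and 0.41 for Jchain. What part these marker shifts had in the results below was not tested, and in bulk RNA fewer cells of a type and less RNA per cell cannot be told apart.

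Cells make superoxide as a by-product of respiration and signalling. Superoxide dismutases turn it into hydrogen peroxide, which catalase splits into water and oxygen and which the glutathione peroxidases and peroxiredoxins reduce to water, drawing on glutathione or thioredoxin. Glutathione is a small thiol made by glutamate-cysteine ligase and glutathione synthetase, and glutathione transferases attach it to reactive compounds such as the aldehydes that arise from oxidised lipids. The transcription factor NRF2, held back by KEAP1, switches on many of these genes, and FoxO factors are known to activate Sod2 and Cat in other cell types. In Treg cells, loss of Gclc, the catalytic subunit of glutamate-cysteine ligase, is known to impair suppression.

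Of the 39 genes 3 passed the test, and the log2 differences of the whole set lay on both sides of 0, with 21 above and 18 below. Signals are given below for pair 1 and then pair 2, first in wild type and then on the labelled-deficient arrays. They were compared as log2(signal + 17) with limma, two-sided, with Benjamini-Hochberg adjustment over all 12115 genes; a fold change on that scale understates the change of dim genes. Gsta4 and Mgst2 rose and Glrx fell at an adjusted p under 0.05. Over all genes 1.23% were called higher and 1.37% lower, against 2 and 1 of 39 here. Gsta4 is counted here and below although it entered the test only through the labelled-deficient arrays, where it is high. With the pair as a block 4 of these genes were higher and 3 lower, where 5.44% and 6.50% of all genes were; the 4 that the block added were Cat, Gclm, Txn1 and Mt1. The same 4 and 3 genes had an unadjusted p under 0.05, where 5.98% and 7.04% of all genes did. The median log2 change of the 39 was 0.02, beside -0.0028 over all genes, and the median absolute change was 0.27 beside 0.24. Both labelled-deficient arrays lay above both wild-type arrays for 8 of the 39 (20.5%) and below them for 8 (20.5%), close to the 20.0% and 21.1% of all genes. With 2 arrays a group an exact test cannot give a p under 0.333, so these p-values lean on the variance model that limma shares across genes.

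**Figure D1:**
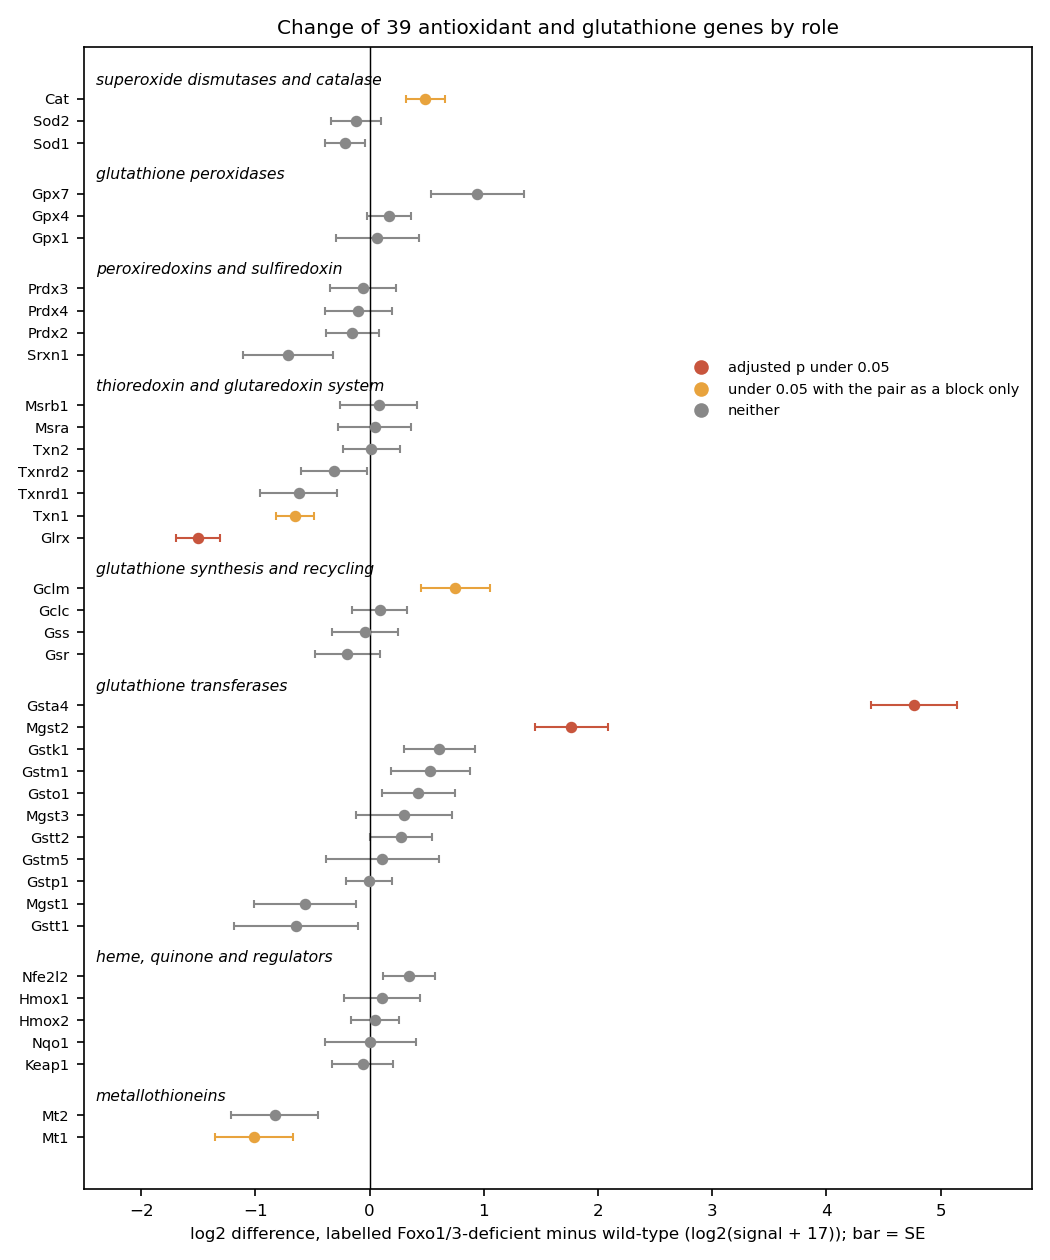
Log2 difference between labelled Foxo1/3-deficient and wild-type arrays (x axis, on the log2(signal + 17) scale, bars are SE, n = 2 arrays a group) for the 39 genes tested, grouped by role. Gsta4 at 4.77 and Mgst2 at 1.77 stand to the right and Glrx at -1.50 to the left, while the other members lie between -1.01 and 0.94.

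Among the glutathione transferases the change was carried by Gsta4 and Mgst2. Gsta4, an alpha-class transferase that conjugates glutathione to 4-hydroxynonenal and similar products of lipid peroxidation, read 16.5 and 10.1 in wild type against 1063 and 606. The wild-type signals lay below 17, the rounded 25th percentile of all values on the arrays, and the groups were far apart. Both also lay under the filter signal of 40.5, so Gsta4 entered the test through the labelled-deficient arrays alone, and a gene that does so has to differ. Gsta4 was the one member of the 39 with both signals of a group under the filter signal. The wild-type signals were not shown to be above background, so the ratio is given as a bound, with wild type set to the filter signal: at least 26.3-fold higher in pair 1 and at least 15.0-fold in pair 2. The fitted difference on the log2(signal + 17) scale was 4.77 ± 0.38 (SE; limma adjusted p = 0.00279). It depends on the pseudocount, at 3.30 with the median of all values and 5.96 with none. Because the gene entered through the arrays where it is high, neither this p-value nor the alternatives add support for the difference. A filter at the 60th percentile removed Gsta4.

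Mgst2, a microsomal transferase that can also make leukotriene C4, read 1214 and 848 in wild type against 2615 and 4664. Both labelled-deficient values lay above both wild-type ones, but the change was uneven, at 2.15 times in pair 1 and 5.50 times in pair 2. The log2 difference was 1.77 ± 0.32 (SE; limma adjusted p = 0.0363). The call was lost without labelled-deficient replicate 2 (log2 1.35, adjusted p = 0.116), without the filter on dim probe sets (0.0965), without the intensity trend (0.103) and when every probe set was tested (0.0505). In gene order a single protein-coding gene lies between Mgst2 and Foxo1 on chromosome 3, and Foxo1 had a log2 difference of 1.97 ± 0.30 on the same arrays. The tested genes on the other side did not share it: Setd7, next to Mgst2, stood at 0.35 ± 0.21 (adjusted p = 0.611) and Rab33b at -0.31 ± 0.25 (0.745). Beyond Foxo1, Cog6 stood at -0.40 ± 0.24 (0.600). Whether the position near Foxo1 had a part in the Mgst2 signal was not tested, nor was the part of the macrophage markers, whose median log2 difference was 0.83 over 10 genes.

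The promoter of Mgst2, shown because it belongs to a called gene near Foxo1 in gene order, lies at chr3:51660929-51661228 (RefSeq, GRCm38.p6, + strand) and runs from 250 bases before to 50 bases after the start:
Mgst2: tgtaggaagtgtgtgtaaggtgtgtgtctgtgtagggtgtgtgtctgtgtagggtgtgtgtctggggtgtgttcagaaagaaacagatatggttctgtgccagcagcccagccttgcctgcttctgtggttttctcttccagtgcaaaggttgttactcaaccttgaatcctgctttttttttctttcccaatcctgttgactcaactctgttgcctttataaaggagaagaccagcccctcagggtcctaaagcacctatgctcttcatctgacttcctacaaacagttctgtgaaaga
It holds neither of the motifs searched on both strands, the antioxidant response element core TGACNNNGC, where NRF2 binds, and the FoxO core GTAAACA, so no letter is in capitals. Promoter windows were found for 36 of the 43 genes; 9 of these (25%) had the TGACNNNGC core in a window, where 14% of 27025 genes in the table do. The GTAAACA core was in 0 of the 36 and in 4.05% of all genes. A match is only a run of letters in this window, and these shares were not tested.

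The other 9 transferases of the list did not pass, in either fit. Their log2 differences ran from -0.64 for Gstt1 to 0.61 for Gstk1, and 6 of the 9 lay above 0. Gstt1 was dim, at 131 and 34.8 in wild type against 49.4 and 30.2, with a signal under the filter signal of 40.5 in each genotype. Gstp1, the pi-class transferase, read 7471 and 5628 in wild type against 6763 and 6174, so the groups overlapped (log2 -0.01 ± 0.20, adjusted p = 0.998). Gsto1, an omega-class transferase, read 2126 and 2572 against 4373 and 2269, high on the labelled-deficient array of pair 1 alone; its second probe set did likewise, at 756 and 1002 against 1594 and 908. Gstm1 read 76.3 and 59.5 against 111 and 99.7, and Gstk1, a transferase of mitochondria and peroxisomes, 291 and 215 against 466 and 328; in both genes the groups did not overlap, but limma gave adjusted p values of 0.642 and 0.508. Of 7 further transferase genes outside the list that were tested, 0 passed at an adjusted p under 0.05 and 0 with the block, with log2 differences from -0.74 to 0.18.

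**Figure D2:**
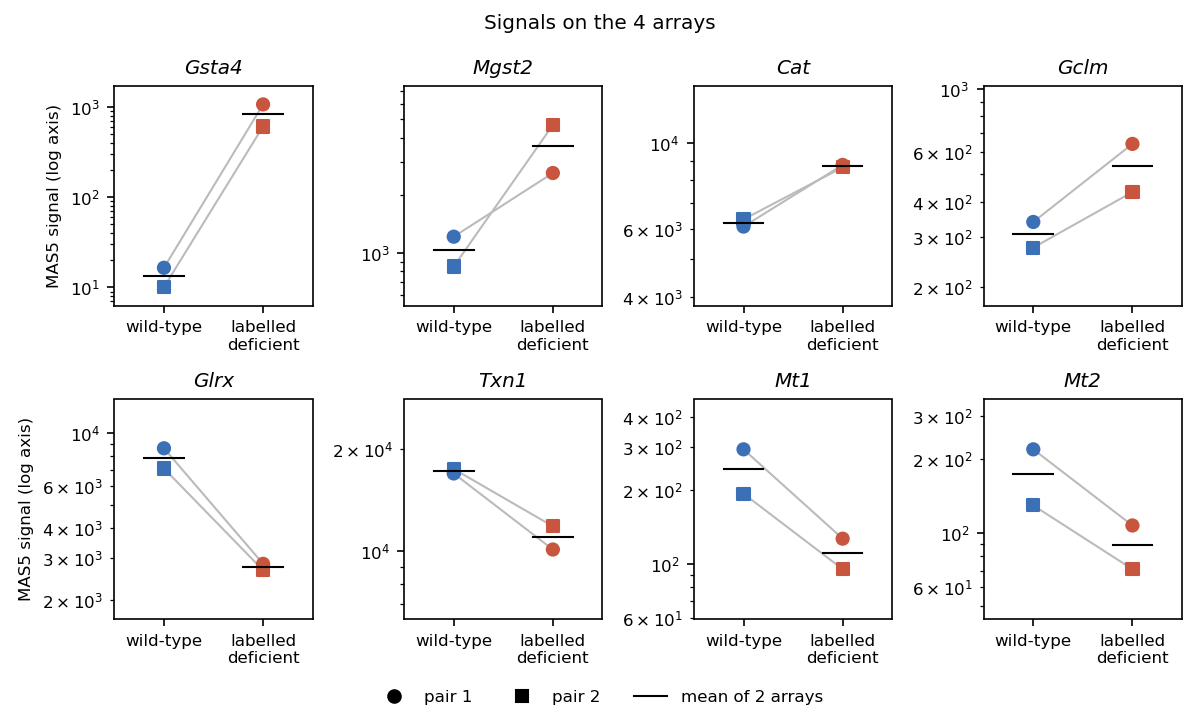
MAS5 signals (y axes, log scale, each panel with its own range) of 8 genes on the wild-type and labelled-deficient arrays, with lines joining the arrays of a pair and bars at the mean of 2 arrays. In each panel both labelled-deficient arrays lie on the same side of both wild-type arrays, from 16.5 and 10.1 to 1063 and 606 in Gsta4 and from 8630 and 7102 to 2834 and 2664 in Glrx.

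Of the 7 genes of the thioredoxin and glutaredoxin system Glrx fell, and Txn1 passed with the block alone. Glrx encodes glutaredoxin 1, which uses glutathione to release proteins from mixed disulfides. It read 8630 and 7102 in wild type against 2834 and 2664, 3.05 and 2.67 times lower within the pairs. The groups were well apart, and a second probe set gave 880 and 642 against 362 and 237. The log2 difference was -1.50 ± 0.19 (SE; limma adjusted p = 0.0116). The call held without any 1 array and in every other alternative except the fit without the intensity trend (adjusted p = 0.0628).

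Glrx has its promoter at chr13:75839635-75839934 (RefSeq, GRCm38.p6, + strand), shown as that of the member that fell:
Glrx: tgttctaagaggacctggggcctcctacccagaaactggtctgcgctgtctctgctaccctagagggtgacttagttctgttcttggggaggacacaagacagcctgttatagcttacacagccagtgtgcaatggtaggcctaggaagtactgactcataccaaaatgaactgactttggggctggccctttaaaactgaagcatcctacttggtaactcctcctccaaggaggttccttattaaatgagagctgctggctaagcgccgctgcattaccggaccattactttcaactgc
Neither motif is in it. The gene next to Glrx in gene order, Ell2, which encodes a transcription elongation factor, fell as well, from a mean signal of 2368 to 704 (log2 -1.72 ± 0.25, adjusted p = 0.0170). The tested genes on either side of these did not pass: Cast stood at 0.18 ± 0.23 and Spata9 at 0.20 ± 0.78. Markers of dividing cells were lower on the same arrays, with a median log2 difference of -1.20 over 7 genes, and their part in the Glrx result was not tested.

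Txn1, the cytosolic thioredoxin that reduces peroxiredoxins and ribonucleotide reductase, read 16917 and 17433 in wild type against 10114 and 11833. The groups did not overlap, at 1.67 and 1.47 times lower within the pairs, and the second probe set also did not overlap. The log2 difference was -0.65 ± 0.17 (SE; limma adjusted p = 0.104, but 0.0128 once blocked on pair and 0.0512 with the block over every probe set). Txnrd1, the cytosolic reductase that recharges thioredoxin, read 1155 and 941 against 933 and 484, with no overlap but with labelled-deficient replicate 1 only just below wild-type replicate 2. The Txnrd1 difference of -0.62 ± 0.34 did not pass (adjusted p = 0.545, and 0.0532 with the block). The mitochondrial partners were nearer 0: Txn2 stood at 0.02 ± 0.25 and Txnrd2 at -0.31 ± 0.29. The methionine sulfoxide reductases Msra and Msrb1, which repair oxidised methionine, stood at 0.05 ± 0.32 and 0.08 ± 0.34, and their groups overlapped.

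Superoxide dismutases and catalase held 1 member that the block called and 2 that it did not. Cat, which encodes the peroxide-splitting enzyme catalase, read 6080 and 6345 in wild type against 8776 and 8651, with a tight spread inside each group. The ratio was 1.44 in pair 1 and 1.36 in pair 2, and the second probe set read 3096 and 3073 against 4539 and 3727. The log2 difference of 0.49 ± 0.17 missed the threshold (limma adjusted p = 0.242), passed narrowly with the pair as a block (0.0493) and missed it with the block over every probe set (0.134). Sod2, the mitochondrial superoxide dismutase, read 2783 and 3475 against 2575 and 3173, so the groups overlapped (log2 -0.12 ± 0.22, adjusted p = 0.929). Sod1, the copper-zinc enzyme of the cytosol, read 13573 and 15302 against 11305 and 13559; its lowest wild-type and highest labelled-deficient signals nearly met (log2 -0.22 ± 0.18, adjusted p = 0.745). The 4 kept probe sets of Sod1 ran from -0.25 to 0.47 and did not share a sign.

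The peroxidases that use glutathione or thioredoxin did not pass the test. Of the 3 glutathione peroxidases tested, Gpx1, the main cytosolic enzyme, read 5800 and 2676 against 4954 and 3434, high in pair 1 in both genotypes. Gpx4, which reduces lipid peroxides in membranes, read 4855 and 4079 against 4802 and 5248, with overlap (log2 0.17 ± 0.19, adjusted p = 0.842). Gpx7, a peroxidase of the endoplasmic reticulum, was dim, at 43.7 and 91.6 against 166 and 116; both labelled-deficient values were higher, but 0.94 ± 0.41 did not pass (adjusted p = 0.392). The 3 peroxiredoxins tested lay between -0.15 and -0.06, with overlapping groups. Srxn1, the sulfiredoxin that repairs over-oxidised peroxiredoxins, read 135 and 257 against 131 and 87.7, which is a difference in pair 2 only, and its other kept probe set had the opposite sign (0.15).

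Of the 4 genes of glutathione synthesis and recycling 0 passed without the block and 1, Gclm, with it. Gclm, the modifier subunit that raises the activity of glutamate-cysteine ligase, read 339 and 275 in wild type against 639 and 432. The groups did not overlap, with ratios of 1.88 and 1.57 within the pairs. The log2 difference was 0.75 ± 0.30 (limma adjusted p = 0.334, 0.0470 with the block and 0.136 with the block over every probe set), and the second probe set, at 234 and 88.7 against 147 and 247, overlapped. Gclc, the catalytic subunit, read 937 and 1214 against 1184 and 1088 (0.09 ± 0.24, adjusted p = 0.960). Its second probe set read 735 and 1006 against 1231 and 1209, with no overlap and a larger difference of 0.50 ± 0.26, which did not pass when every probe set was tested (0.617, and 0.251 with the block). Gss, glutathione synthetase, stood at -0.04 ± 0.28 and Gsr, the reductase that regenerates glutathione, at -0.19 ± 0.28.

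Of the 7 genes called with the block, 6 (not Gsta4) had a promoter window, and 1 of the 6, Gclm, had the antioxidant response element core in it. That window lies at chr3:122245307-122245606 (RefSeq, GRCm38.p6, + strand); capitals mark the match, on the opposite strand, 134 to 126 bases before the start:
Gclm: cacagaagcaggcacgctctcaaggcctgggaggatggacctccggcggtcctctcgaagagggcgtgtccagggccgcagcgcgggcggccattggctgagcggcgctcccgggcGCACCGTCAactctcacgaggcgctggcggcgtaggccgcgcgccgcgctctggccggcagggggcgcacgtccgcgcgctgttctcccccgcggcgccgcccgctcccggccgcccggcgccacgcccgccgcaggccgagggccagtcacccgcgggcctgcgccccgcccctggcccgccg

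None of the 5 regulators, heme oxygenases and quinone reductases passed the test in either fit. Nfe2l2 read 1490 and 1179 in wild type against 1734 and 1640; the groups did not overlap, but the difference of 0.34 ± 0.23 did not pass (limma adjusted p = 0.655, 0.240 with the block). Keap1 overlapped (-0.06 ± 0.27). Hmox1, the inducible heme oxygenase and a classic NRF2 target that red pulp macrophages also express, read 225 and 180 against 270 and 176, and Nqo1, a quinone reductase, 51.0 and 79.2 against 79.8 and 51.3. Hmox2, the constitutive heme oxygenase, read 2618 and 2363 against 2798 and 2357. In none of these last 3 genes were the labelled-deficient arrays apart from the wild-type ones.

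Both metallothioneins, small cysteine-rich proteins that bind zinc and copper, were lower on the labelled-deficient arrays. Mt1 read 294 and 193 in wild type against 127 and 94.9, and Mt2 read 219 and 129 against 107 and 70.9. Neither gene's groups overlapped. Within the pairs Mt1 was 2.32 and 2.04 times lower and Mt2 2.05 and 1.82 times. The log2 difference of Mt1 was -1.01 ± 0.35 (limma adjusted p = 0.232, 0.0466 with the block, 0.125 with the block over every probe set), and that of Mt2 was -0.83 ± 0.38 (0.432 and 0.159 with the block), so only Mt1 passed, and only with the block. The probe set of Mt1 has the suffix _s_at, which the maker gives to sets that can match several transcripts. These genes are next to each other in gene order, and their promoters are shown for that reason, Mt1 at chr8:94178839-94179138 and Mt2 at chr8:94172368-94172667 (RefSeq, GRCm38.p6, both + strand):
Mt1: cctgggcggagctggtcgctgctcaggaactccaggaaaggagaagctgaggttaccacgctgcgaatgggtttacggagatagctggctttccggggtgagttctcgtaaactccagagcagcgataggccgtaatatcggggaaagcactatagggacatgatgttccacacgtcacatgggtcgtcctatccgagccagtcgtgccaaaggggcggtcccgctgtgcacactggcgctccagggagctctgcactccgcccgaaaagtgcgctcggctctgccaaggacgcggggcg
Mt2: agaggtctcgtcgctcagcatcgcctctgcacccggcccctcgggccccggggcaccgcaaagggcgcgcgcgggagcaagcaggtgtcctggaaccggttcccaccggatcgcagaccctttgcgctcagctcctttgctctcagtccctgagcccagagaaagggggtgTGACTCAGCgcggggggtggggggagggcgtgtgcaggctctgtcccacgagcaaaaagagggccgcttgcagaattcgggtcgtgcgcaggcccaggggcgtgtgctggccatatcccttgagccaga
Capitals in Mt2 mark the antioxidant response element core, 79 to 71 bases before the start; Mt1 holds neither motif.

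**Figure D3:**
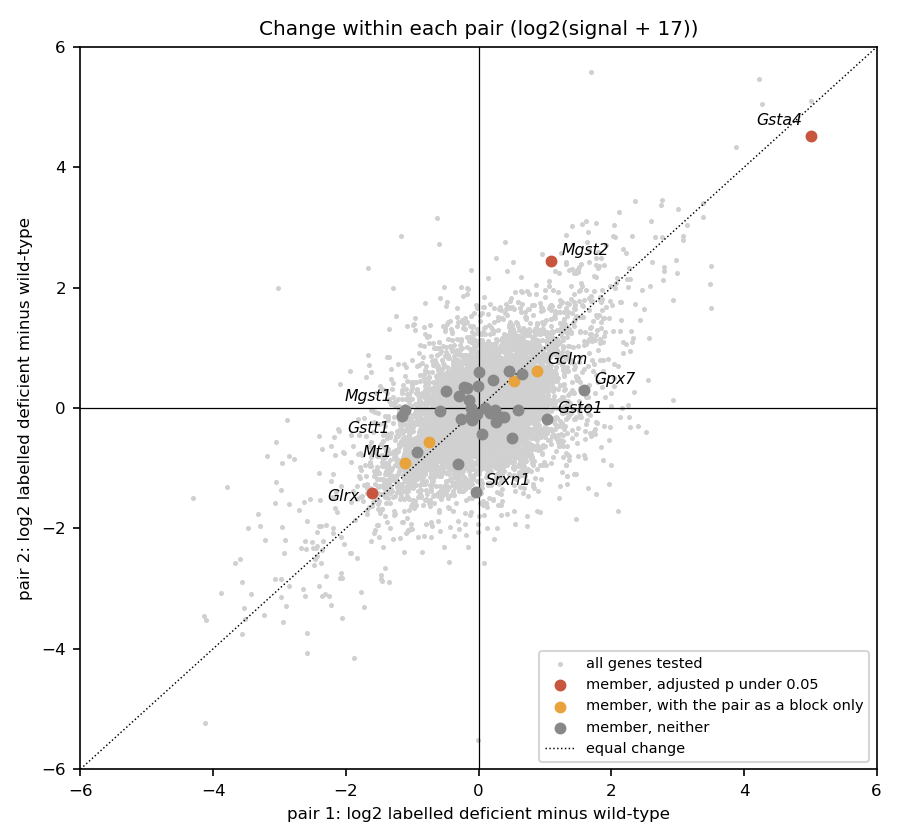
Log2 change from the wild-type to the labelled-deficient array within pair 1 (x axis) and pair 2 (y axis), on the log2(signal + 17) scale, for all 12115 genes (grey) and the 39 genes described (large points, coloured by their test). Gsta4, at 5.01 and 4.52, lies near the line of equal change at the upper right, Mgst2, at 1.10 and 2.44, lies above it, and Gsto1 (1.03 and -0.18), Gpx7 (1.59 and 0.30) and Srxn1 (-0.04 and -1.39) moved mainly in 1 pair.

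Within the pairs, Gsta4 and Mgst2 were at least 2-fold higher and Glrx at least 2-fold lower in both. Since Gsta4 entered the test only through the labelled-deficient arrays, its place here is no separate support. Over all genes 2.10% were that much higher and 2.33% that much lower. The sign differed between the pairs for 16 of the 39 genes (41.0%), beside 37.4% of all genes. Both pairs stayed within 0.26 of 0 on the log2 scale for 8 genes, Gstp1, Hmox1, Hmox2, Keap1, Msra, Prdx2, Prdx3 and Sod2, which is 20.5% beside 24.2% of all genes.

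Some members differed more between the pairs than between the genotypes. Prdx3, the mitochondrial peroxiredoxin, read 1612 and 1493 on the arrays of pair 1 and 2301 and 2295 on those of pair 2, in each case wild-type first. In a fit with genotype as a covariate it was higher in pair 2 by 0.56 ± 0.16 on the log2 scale (limma adjusted p = 0.0401). The genotype difference in the same fit was -0.06 ± 0.16. Gpx1 was lower in pair 2, at -0.82 ± 0.17 (adjusted p = 0.00576), which is larger than its genotype difference of 0.07 ± 0.17 in the same fit. Prdx2, a peroxiredoxin abundant in red cells, read 6355 and 5921 in pair 1 and 8837 and 7690 in pair 2 but did not pass (adjusted p = 0.112). Of the 39 genes 1 was called higher and 1 lower in pair 2, where 3.14% and 3.96% of all genes were. Both arrays of pair 2 lay above both of pair 1 for 7 of them, beside 16.2% of all genes, and below for 10, beside 23.1%. Neither call held when every probe set was tested or without the intensity trend, and that of Prdx3 was also lost unfiltered, after quantile normalization and on first-listed probe sets. The sources used here do not give what the pair number stands for.

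**Figure D4:**
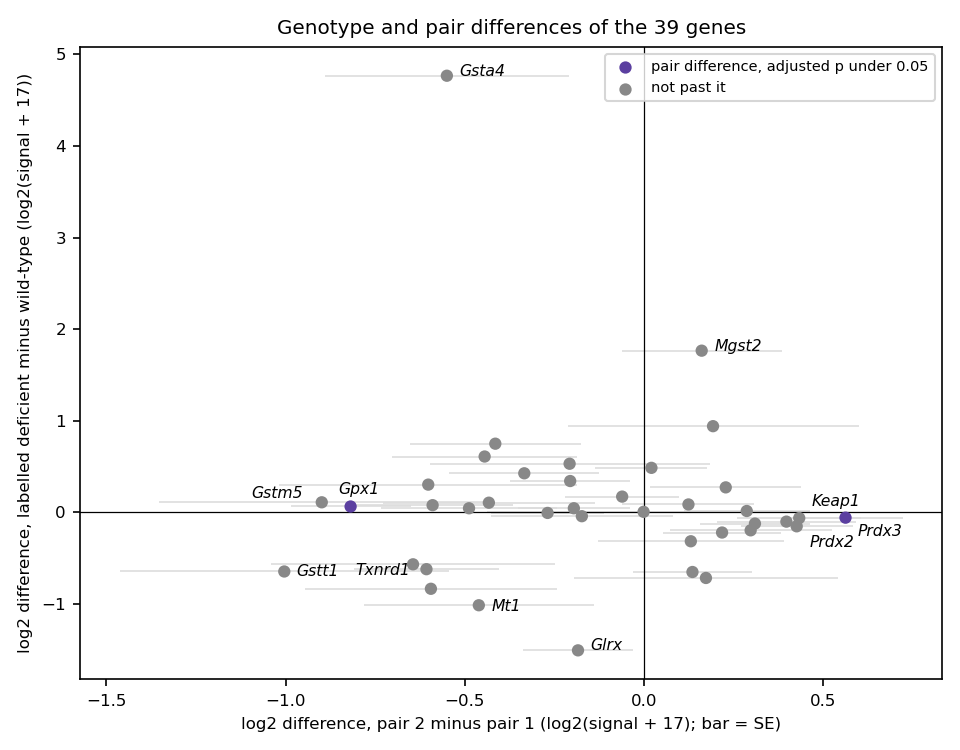
Genotype difference (y axis) against the difference between pair 2 and pair 1 (x axis, bars are SE), both on the log2(signal + 17) scale, for the 39 genes. Gpx1 at -0.82 and Prdx3 at 0.56 on the x axis are the members called between pairs and lie near 0 on the y axis, while Gsta4, Mgst2 and Glrx lie far from 0 on the y axis.

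Of the 39 genes, 19 were read by several probe sets above the filter. All of a gene's probe sets had the same sign in 13 of them, among these Glrx, Cat, Gclm, Txn1, Txnrd1 and Gsto1. The signs were mixed in 6, namely Keap1, Prdx2, Sod1, Sod2, Srxn1 and Txn2, none of which passed in either fit. Gsta4 and Mgst2 each had a single probe set, so no second reading of either was to be had, and that of Mt1 above the filter was also single.

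**Figure D5:**
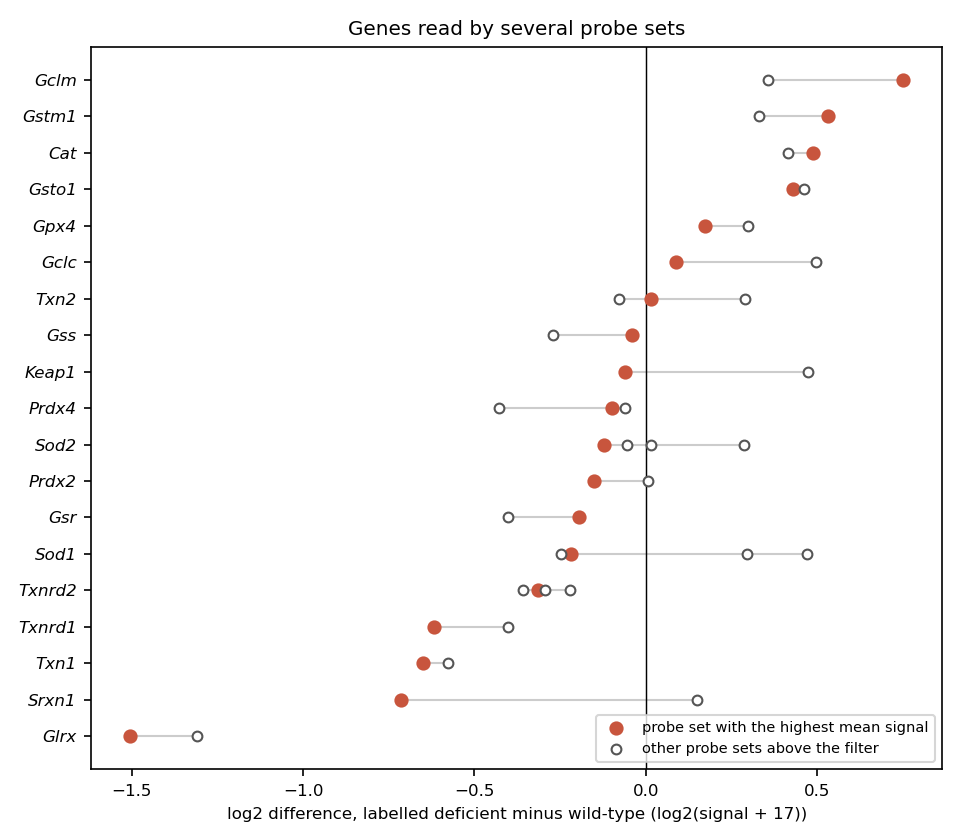
Log2 difference between labelled-deficient and wild-type arrays (x axis, log2(signal + 17) scale) for each kept probe set of the 19 genes with several, ordered by the brightest probe set (filled). The 2 Glrx probe sets lie at -1.50 and -1.31, those of Txn1 at -0.65 and -0.58, and those of Cat at 0.49 and 0.41, while those of Sod1 run from -0.25 to 0.47.

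Beyond the 39, genes that feed or sense the same chemistry changed singly. For the lists here and in the next paragraph, 1.23% of all genes were called higher and 1.37% lower. With the block these shares were 5.44% and 6.50%. Of 19 further thiol and peroxide genes tested, 2 rose and 0 fell at an adjusted p under 0.05 (3 and 0 with the block): Sesn1, a FoxO target that restrains growth under stress (log2 1.96 ± 0.24, adjusted p = 0.00969), and Selenop, a secreted selenium carrier (1.89 ± 0.28, 0.0204). The block added Msrb2, a mitochondrial methionine sulfoxide reductase (0.91 ± 0.30, 0.206, and 0.0466 with the block). The median of that list was 0.08. Of 21 NRF2 partners and other targets 2 rose and 1 fell (4 and 2 with the block; median 0.17): Bach2, a repressor of the same DNA element and of effector T cell genes (2.43 ± 0.48, 0.0450), Ephx1, an epoxide hydrolase (1.20 ± 0.20, 0.0272), and Maf, a transcription factor (-0.85 ± 0.17, 0.0440). Bach2 read 1450 and 451 in wild type against 4982 and 3945. The block added Slc40a1 (0.76 ± 0.30, limma adjusted p = 0.325, and 0.00207 with the block) and Sqstm1 (0.54 ± 0.22, 0.326 and 0.0343) as higher. It added Mafg as lower (-1.09 ± 0.27, 0.0895 and 0.00544). The calls of Bach2, Ephx1 and Maf without the block were each lost in at least 4 of 14 alternatives. Without labelled-deficient replicate 1 the limma adjusted p was 0.0791 for Bach2, 0.142 for Ephx1 and 0.168 for Maf. Without labelled-deficient replicate 2 it was 0.0776 for Ephx1 and 0.145 for Maf, and without wild-type replicates 1 and 2 in turn it was 0.0835 and 0.0528 for Maf. Sesn1 and Selenop kept theirs without any 1 array, but both were lost without the intensity trend (0.0525 and 0.0795) and Selenop also when dim probe sets were kept (0.0711).

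In the metal-handling list, 1 of 12 genes rose and 1 fell (2 and 1 with the block; median 0.03). Ccs, the chaperone that loads copper into the Sod1 protein, read 577 and 744 in wild type against 1911 and 1916, a log2 difference of 1.52 ± 0.24 (limma adjusted p = 0.0226), while Sod1 itself did not pass. Slc39a6, a zinc importer, fell by 1.16 ± 0.22 on the log2 scale (adjusted p = 0.0439). Both calls were lost without the filter on dim probe sets (limma adjusted p = 0.0550 for Ccs and 0.106 for Slc39a6). Both were also lost without the intensity trend (0.0635 and 0.133). The Slc39a6 call was lost over every probe set (0.0673), on first-listed probe sets (0.0512) and on the mean of its kept probe sets (0.139). Without either labelled-deficient array both missed the threshold (Ccs 0.0837 and 0.0786, Slc39a6 0.185 and 0.0631), as Slc39a6 did without wild-type replicate 2 (0.0985). None of 15 genes of NADPH supply (median -0.05), 14 of glutathione precursor uptake and turnover (0.01) and 8 of superoxide production (-0.07) passed in limma at an adjusted p under 0.05. With the block 1 of these did, Ncf4, a subunit of the phagocyte NADPH oxidase, at -0.83 ± 0.21 (0.108, and 0.00145 with the block).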

How the data were processed

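The deposited values are MAS5 signal intensities for 45101 probe sets, per the submitters' processing notes, and their range is that of a linear scale; the sources used here give neither version nor settings. Of the probe sets, 34945 had 1 symbol in the platform annotation, 932 several, 9160 none and 64 were controls. Symbols were checked against RefSeq GRCm38.p6, used for names, gene order and promoters. Values were taken as log2(signal + 17), 17 being the rounded 25th percentile. Probe sets under the 40th percentile of mean log2 (a signal of about 40.5) were left out, and each gene was read from its kept probe set with the highest mean signal. limma 3.58.1 in R 4.3.3 (lmFit, eBayes with an intensity trend) compared 2 arrays with 2, with 2 residual degrees of freedom plus 5.67 from the variance model. Blocking on the pair leaves 1 residual degree. The 5.67 belongs to the fit without the block. What the variance model adds to the block fit was not recorded, so the calls made with the block lean on it to an unstated degree. The fit without the block was tried on simulated data that held no pair effect, and the block fit was not tried. Pairing comes from the sample titles; across genes, same-numbered arrays deviated together from their group means (r = 0.368). The 4 arrays limit the precision. Detection calls were not analysed.

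The members and lists were chosen with earlier results of these data known. Members called in either fit and the brightest of each role were to be named, and in other lists up to 3 called genes each; Sod2, Gpx7, Txnrd1 and the others, and the neighbouring genes, were named after their values were seen. The pair contrast and the block over every probe set were also added then. So were Ncf4, Msrb2, Slc40a1, Sqstm1, Mafg, Mmp9, Mpo and Ms4a1, called with the block alone, and the bound on Gsta4 was set then. The markers Lyz2, Cd68, Xbp1, Sdc1 and Jchain were also named after their values were seen.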

Additional observations from a re-analysis of the deposited data

How the results depend on the processing

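In the 14 alternatives tried, the rises of Gsta4 and Mgst2 and the fall of Glrx kept their direction in each that gave them a value. Gsta4 ran from 3.30 to 5.96, Mgst2 from 1.35 to 2.18 and Glrx from -1.65 to -1.36. Gsta4 adds no support here or in the counts below. Its place among the genes tested came from the labelled-deficient arrays alone, where it is high. The genes called higher and lower over the whole array, 149 and 166, became 46 and 45 unfiltered, 83 and 109 on first-listed probe sets, 58 and 55 without the intensity trend, and 659 and 787 with the pair as a replicate block; without 1 array they ran from 70 to 271 and from 82 to 262 (271 and 262 with the wild-type array of pair 1 left out, 70 and 82 or 75 and 105 with the labelled-deficient array of pair 1 or pair 2 left out). Of the antioxidant and glutathione genes, 2 higher and 1 lower became 1 higher without the filter, at the 60th percentile (which removed Gsta4) and over every probe set, 1 and 0 without the trend, and 4 and 3 with the block; without 1 array 1 to 2 were higher and 1 lower. The block changed the calls of Cat, Gclm, Txn1 and Mt1 and of no other gene of the 39. With the block over every probe set none of these 4 passed (limma adjusted p = 0.134, 0.136, 0.0512 and 0.125, in that order).

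Signs turned for 23 of the 36 members that were not called. Under quantile normalization Msra went to -0.019, Gstp1 to 0.049 and Nqo1 to -0.054. On first-listed probe sets Sod1 stood at 0.47, Sod2 at 0.013, Srxn1 at 0.15 and Txn2 at -0.079, and on the mean of the kept probe sets Sod1 at 0.075, Sod2 at 0.030 and Keap1 at 0.21. Without 1 array these members ran across 0: Gclc from -0.096 to 0.27, Gpx1 from -0.49 to 0.62, Gsr from -0.47 to 0.076, Gss from -0.25 to 0.17, Gstm5 from -0.47 to 0.69, Gsto1 from -0.043 to 0.90, Gstp1 from -0.21 to 0.20, Gstt1 from -1.40 to 0.11, Hmox1 from -0.18 to 0.39, Hmox2 from -0.077 to 0.17, Keap1 from -0.30 to 0.18, Mgst1 from -1.16 to 0.027, Mgst3 from -0.14 to 0.75, Msra from -0.26 to 0.36, Msrb1 from -0.34 to 0.50, Nqo1 from -0.25 to 0.26, Prdx2 from -0.39 to 0.086, Prdx3 from -0.36 to 0.25, Prdx4 from -0.49 to 0.29, Sod2 from -0.28 to 0.038, Txn2 from -0.25 to 0.28. The cause was not tested. The wild-type signals of Gsta4 lie under the filter signal of 40.5, so its fold is known only as a bound.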

Other observations

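Around Gsta4, the 3 tested genes on either side in gene order did not pass limma at an adjusted p under 0.05. Cilk1, next to it, stood at 0.49 ± 0.29 (SE; adjusted p = 0.605), Fbxo9 at 0.23 ± 0.22 (0.809) and Elovl5, a fatty acid elongase, at 0.34 ± 0.18 (0.542). On the other side Dppa5a stood at 0.16 ± 0.37 (0.950), Ooep at 0.44 ± 0.36 (0.751) and Ddx43 at -0.09 ± 0.31 (0.975). Of the 18 neighbours read around Gsta4, Mgst2 and Glrx, 2 passed, Foxo1 near Mgst2 and Ell2 next to Glrx. Gclc, the catalytic subunit of glutamate-cysteine ligase, lies 4 protein-coding genes away from Gsta4 and stood at 0.09 ± 0.24. These neighbours were read after the values of the members were known, and no cause was tested.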
